A study of Homo sapiens with 6 samples.

Results

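The BCL2 family of apoptosis regulators was followed through 10 of its genes in SiHa cells, an established human papillomavirus-positive line from a cervical epidermoid carcinoma. The genes were taken by symbol from a table of 17156 genes, and all 10 were listed: the anti-apoptotic genes BCL2, BCL2L1 and MCL1, the effectors BAX and BAK1, and the BH3-only genes BBC3, PMAIP1, BCL2L11, BID and BIK. Total RNA was sequenced from 3 libraries of control cells (shcontrol) and 3 libraries of cells with VPS13C knocked down (shVPS13C), and all 6 cultures had been exposed to cisplatin, a DNA-crosslinking platinum compound, at 20 µM over 48 h. VPS13C encodes a lipid transfer protein found where the endoplasmic reticulum meets late endosomes and lysosomes. Because the control group carried the drug too, the data compare knockdown with control under cisplatin and hold no measurement of the response to cisplatin itself. The labels name neither the hairpin nor its vector, and do not say whether a line was 1 clone or whether replicates were separate cultures. The p-values therefore describe the spread between these libraries, which may be technical.

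Proteins of this family decide whether the outer membrane of mitochondria stays intact. BAX and BAK, once activated, assemble into pores that let cytochrome c escape, and the anti-apoptotic proteins hold them, and the BH3-only proteins that activate them, in check. Damage to DNA, such as that done by cisplatin, can raise BH3-only genes such as BBC3 and PMAIP1.

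The libraries held 15643965 to 16333424 estimated counts. VPS13C, the targeted gene, stood at 812, 876 and 774 counts in shcontrol and at 386, 396 and 440 in shVPS13C, a log2 fold change of -1.02 (SE 0.065, edgeR quasi-likelihood adjusted p = 4.77e-10). Of 9 epithelial markers, 8 reached a mean of 1 CPM (a count scaled to library size), keratins 8, 18, 7 and 17 among them, while KRT5 had at most 1 count in a library. The summed level of the epithelial markers was 5775 to 6314 CPM in shcontrol and 5927 to 6148 in shVPS13C. Within that sum CDH1 was higher in shVPS13C (log2 0.27, edgeR adjusted p = 0.00359). KRT19 was lower without passing an adjusted p of 0.05 (log2 -0.21, edgeR adjusted p = 0.0508). The 5 fibroblast markers summed to 15.04 to 15.45 CPM in shcontrol and 19.2 to 21.7 in shVPS13C, nearly all of it COL1A1, with the other 4, DCN and PDGFRB among them, at no more than 7 counts in any library. COL1A1 itself was higher in shVPS13C (log2 0.43, edgeR adjusted p = 0.00171). Leukocyte markers summed to at most 0.762 CPM with PTPRC at 0, and endothelial markers to at most 3.94 CPM. The part of these markers in the results below was not tested.

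Several of the genes are spliced into forms with different roles, and the stretches where the forms part are shown here because a 50-base read across one of them belongs to 1 form of the pair. Each is a run of 30 bases from GENCODE 29 transcripts on GRCh38, in the direction of the gene: the small letters are shared by both forms, and the capitals are what follows the splice point in that form. In BCL2L1 (chromosome 20, minus strand) the form of 170 codons, known as Bcl-xS and pro-apoptotic, skips the 189 coding bases at chr20:31721655-31721843 that the form of 233 codons, the anti-apoptotic Bcl-xL, keeps. In MCL1 (chromosome 1, minus strand) the form of 271 codons skips the exon of 248 bases at chr1:150578244-150578491 that is present in the anti-apoptotic form of 350 codons. In BAX (chromosome 19, plus strand) the form of 218 codons, BAX beta, keeps the 617 bases at chr19:48960915-48961531 as a retained intron, and BAX alpha, of 192 codons, splices them out.
BCL2L1, 233 codons: cagagctttgaacagGTAGTGAATGAACTC
BCL2L1, 170 codons: cagagctttgaacagGATACTTTTGTGGAA
MCL1, 350 codons: agacggccttccaagGCATGCTTCGGAAAC
MCL1, 271 codons: agacggccttccaagGATGGGTTTGTGGAG
BAX, 218 codons: gaccagggtggttggGTGAGACTCCTCAAG
BAX, 192 codons: gaccagggtggttggGACGGCCTCCTCTCC

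Per kilobase, BCL2L1 and BAX were by far the most abundant of the 10 transcripts, and BCL2 was the lowest. By the authors' FPKM, which scales counts to transcript length and library size, the level of BCL2L1 in shcontrol was 212 ± 7.69 (SD, n = 3) and that of BAX was 209 ± 10.0. The FPKM of both overlapped over the 6 libraries, so the order between them was not resolved. MCL1 followed at 80.6 ± 2.37 FPKM, with BAX 2.60-fold above it and no overlap. The place of BAX above MCL1 rests on the lengths used for FPKM. Counts and FPKM together imply 0.628 kb for BAX and 3.67 kb for MCL1 in shcontrol. In CPM, BAX (131 in shcontrol) lay below MCL1 (296). PMAIP1 (20.8 ± 0.976 FPKM), BID (20.1 ± 0.610) and BAK1 (17.9 ± 0.373) followed, and each overlapped with the next in that order. BCL2L11 (11.05 ± 0.641 FPKM), BBC3 (10.99 ± 1.31) and BIK (9.14 ± 0.455) formed a lower trio, again with overlap between neighbours. BCL2, the founding anti-apoptotic gene, lay at 0.207 ± 0.0839 FPKM. By mean FPKM over all 6 libraries, BCL2 stood at percentile 1.92 of the tested genes, a set that it did not itself enter. On the same scale BCL2L1 and BAX lay at percentile 96.7 and MCL1 at 90.1. In shVPS13C the same 3 genes led, and the order changed only between genes whose libraries overlapped.

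**Figure D1:**
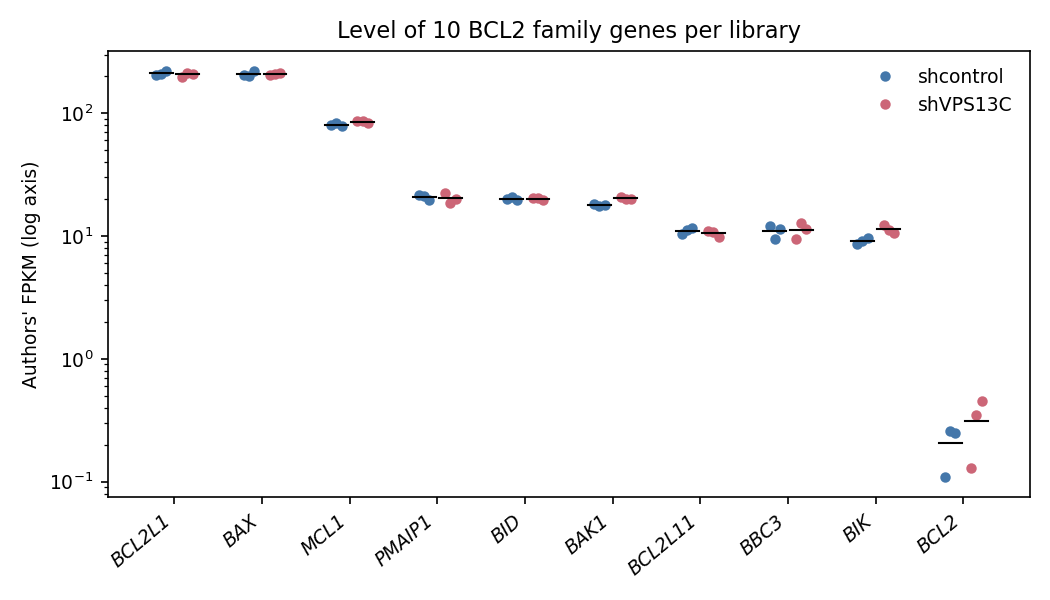
Authors' FPKM of the 10 genes in each library on a log axis, ordered by the shcontrol mean; points are libraries (3 shcontrol, 3 shVPS13C) and lines are group means. BCL2L1 and BAX lie between 199 and 221, MCL1 between 78.4 and 86.3, BCL2 at or below 0.45, and the other 6 genes between 8.68 and 22.4.

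None of the 9 tested members passed the test between knockdown and control, and BCL2 was not tested. Of the 12671 genes that passed the filter on low counts, 4.5% passed an adjusted p of 0.05 in edgeR's quasi-likelihood comparison, 2.27% higher and 2.23% lower in shVPS13C. Among the members 9 were tested, and 0 of 9 were called by edgeR, by DESeq2 (which called 2.7% of all tested genes) or by limma-trend on log2(FPKM + 1) (1.16%). At an unadjusted edgeR p under 0.05 stood 3 of the 9, BAK1, BIK and MCL1, all higher in shVPS13C. That compares with 18.9% of all tested genes in either direction and 9.45% in the higher direction. At the same unadjusted limit DESeq2 gave 2 members and limma 3. The share of all tested genes under that limit is not given here for either tool, so these counts have no background to be read against. The median log2 fold change of the 9 was 0.0055, beside -0.0010 over all tested genes. In bulk libraries, fewer cells with a transcript and less of it per cell cannot be told apart.

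**Figure D2:**
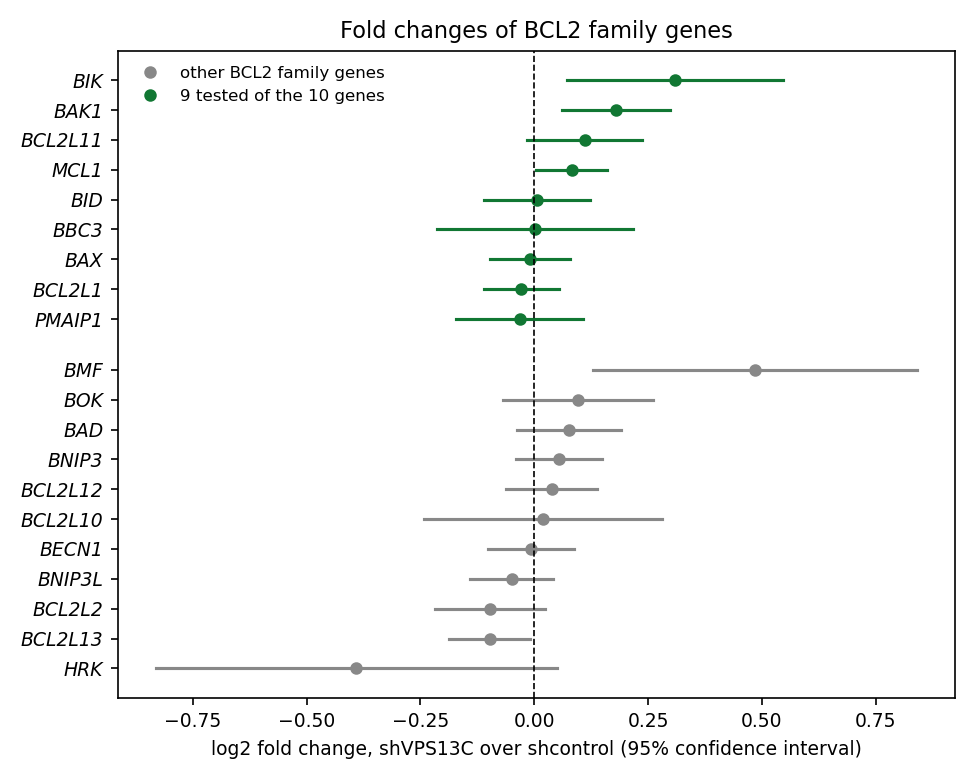
Log2 fold changes (shVPS13C over shcontrol) with 95% confidence intervals from the edgeR fit, for the 9 tested members (green) and 11 other tested genes of the family (grey). Intervals of BIK, BAK1 and MCL1 lie above 0, those of the other 6 members include it, and no adjusted p was under 0.05.

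BCL2L1 (chr20:31664452-31723963, minus strand), whose main product holds BAX, BAK and BH3-only proteins, had 450, 451 and 479 CPM in the shcontrol libraries and 433, 467 and 453 in the shVPS13C libraries. The groups overlapped, with shVPS13C replicate 1 lowest and shcontrol replicate 3 highest. Relative to control the log2 value was -0.03 (SE 0.040, 95% interval -0.11 to 0.05, edgeR adjusted p = 0.758), an interval from -7.44% to 3.83%. An antisense RNA gene, ABALON, covers 43.0% of the exon bases of BCL2L1 on the opposite strand, and 37.4% of the gene's 50-base stretches occur in it. Without strand information, which is not given in the sources used here, reads of both cannot be told apart.

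MCL1 (chr1:150574558-150579610, minus strand), which encodes a short-lived anti-apoptotic protein, had 296, 303 and 289 CPM in shcontrol and 316, 315 and 308 in shVPS13C. All 3 knockdown libraries lay above all 3 controls, though by little. The log2 fold change was 0.08 (SE 0.038, interval 0.0043 to 0.16, edgeR unadjusted p = 0.0394, adjusted p = 0.235), that is 5.83% higher.

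BCL2 (chr18:63123346-63320090, minus strand) was counted 5, 11 and 6 times in shcontrol and 5, 9 and 11 times in shVPS13C, 47 counts in all. It was removed by the filter on low counts and not tested, so these few counts are not read as a difference or as its absence. The summed FPKM of the 3 anti-apoptotic genes was 293 ± 6.31 in shcontrol and 293 ± 7.45 in shVPS13C (SD, n = 3), nearly all of it from BCL2L1 and MCL1. The effectors summed to 227 ± 9.93 and 230 ± 3.94 FPKM, and the 5 BH3-only genes to 72.1 ± 0.391 and 73.5 ± 1.94, with overlap between groups in each sum.

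Of the effectors, BAX overlapped between groups and BAK1 was higher in each knockdown library without passing the test. BAX (chr19:48954875-48961798, plus strand) had 128, 129 and 137 CPM in shcontrol and 126, 134 and 132 in shVPS13C. The groups overlapped throughout, and the log2 fold change was -0.0093 (SE 0.043, interval -0.10 to 0.08, edgeR adjusted p = 0.936), with a sign that turned on the FPKM scale (0.00064). BAK1 (chr6:33572552-33580276, minus strand), whose protein sits in the outer mitochondrial membrane, had 34.8, 33.2 and 33.7 CPM in shcontrol and 39.0, 38.0 and 38.0 in shVPS13C. Each group was tight and the knockdown libraries all lay higher. The log2 fold change of BAK1 was 0.18 (SE 0.058, interval 0.06 to 0.30), a difference of 13.3%. Its edgeR unadjusted p was 0.00468, the smallest of the members, and its adjusted p of 0.0793 missed the threshold; over all alternatives the adjusted p ran from 0.0693 to 0.220. Of the 50-base stretches of BAK1, 14.0% also occur in other genes, the pseudogene BAK1P1 and GGNBP1 on the opposite strand, so its counts carry some uncertainty of assignment. Neither is listed in the gene table under that symbol, and the part of such reads in the difference was not tested. The 3 genes whose centred log2 CPM profile lay nearest to that of BAK1 over the 6 libraries, of 10698 with a mean of at least 5 CPM, were SEMA6C, PMPCA and OLFM1, with root mean squared differences of 0.0091, 0.012 and 0.016 on the log2 scale.

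**Figure D3:**
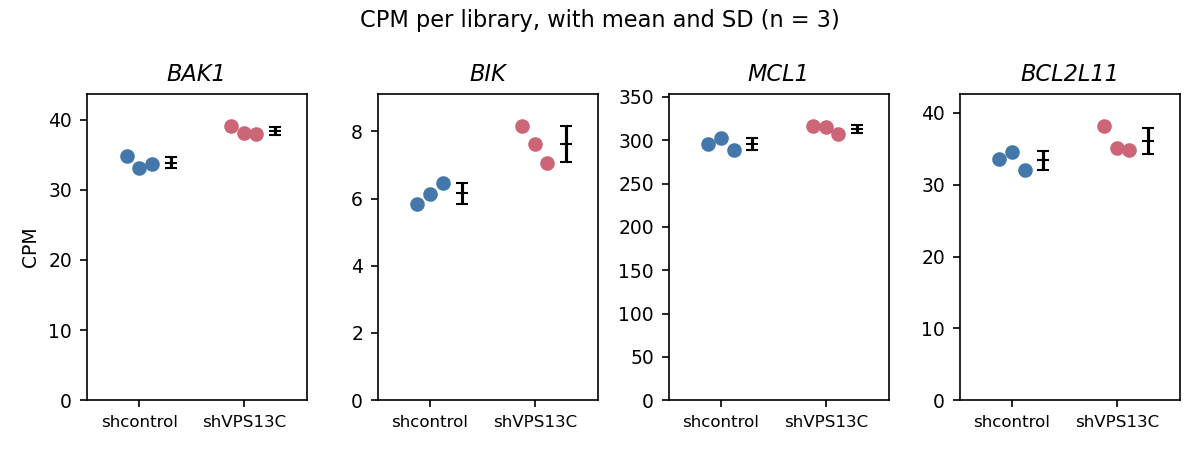
CPM of the 4 members whose groups did not overlap, each library as a point, with mean and SD (n = 3) beside them; axes start at 0. In BAK1 the shVPS13C libraries lie between 38.0 and 39.0 and the controls between 33.2 and 34.8, and in BIK between 7.07 and 8.15 against 5.84 and 6.48.

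Of the 5 BH3-only genes, 2 were higher in all 3 knockdown libraries and 3 overlapped between groups. BIK (chr22:43110750-43129712, plus strand), whose product sits largely at the endoplasmic reticulum, had 5.84, 6.14 and 6.48 CPM in shcontrol and 8.15, 7.62 and 7.07 in shVPS13C. Its libraries did not overlap between groups, and it had the largest fold change of the members: log2 0.31 (SE 0.115, interval 0.07 to 0.55, edgeR unadjusted p = 0.0131, adjusted p = 0.133), or 23.8% higher with an interval from 5.03% to 45.9%. It also had the fewest counts of the tested members, 95 to 133 per library.

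BCL2L11 (chr2:111120914-111168445, plus strand), the gene of BIM, which binds every anti-apoptotic member, had 33.6, 34.5 and 31.996 CPM in shcontrol and 38.1, 35.1 and 34.9 in shVPS13C. The knockdown libraries again lay above the controls, with shVPS13C replicate 1 standing off from the other two. The log2 fold change was 0.11 (SE 0.062, interval -0.017 to 0.24, edgeR adjusted p = 0.346), but on the FPKM scale its sign turned. There it had 10.3, 11.3 and 11.5 FPKM in shcontrol and 10.9, 10.9 and 9.79 in shVPS13C, with overlap and a difference of -0.065 (limma-trend on log2(FPKM + 1), adjusted p = 0.649). The transcript length implied by counts and FPKM together was 3.03 ± 0.242 kb in shcontrol and 3.43 ± 0.173 kb in shVPS13C (SD, n = 3). Of the gene's 50-base stretches, 9.63% occur in MIR4435-2HG, which lies on the opposite strand. Together, 4 of the 9 tested members (BAK1, BIK, MCL1 and BCL2L11) had groups that did not overlap, all higher in shVPS13C. Among all tested genes, 11.8% were higher without overlap. No member was lower without overlap. The share of all tested genes that were lower without overlap is not given here, so no direction of the family is read from this.

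The genes of PUMA and NOXA, BH3-only proteins that respond to DNA damage, overlapped between groups. BBC3 (PUMA, chr19:47220824-47232860, minus strand) had 15.9, 12.5 and 15.8 CPM in shcontrol and 12.4, 16.8 and 15.1 in shVPS13C. Low and high libraries were found in both groups, and the log2 fold change was 0.0016 (SE 0.105, interval -0.21 to 0.22, edgeR adjusted p = 0.994). Its log2 fold change ran from -0.10 to 0.11 when single libraries were left out. PMAIP1 (NOXA, chr18:59899996-59904305, plus strand), whose protein binds MCL1 and promotes its degradation, had 34.9, 34.3 and 32.1 CPM in shcontrol and 36.1, 30.3 and 32.7 in shVPS13C. The knockdown group held both the highest and the lowest library, and the log2 fold change was -0.032 (SE 0.068, interval -0.17 to 0.11, adjusted p = 0.850). BID (chr22:17734138-17774665, minus strand), whose protein caspase-8 cleaves to link death receptors to mitochondria, had overlapping groups, with 37.8, 38.7 and 37.0 CPM against 38.4, 38.5 and 37.1. Its log2 fold change was 0.0055 (SE 0.057, interval -0.11 to 0.12, adjusted p = 0.973).

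Over the 9 tested members the 95% intervals bound what the data allow: the lowest lower limit was -0.21 (BBC3), and outside BIK and BAK1 the highest upper limit was 0.24 (BCL2L11) on the log2 scale. A change of 2-fold in either direction, the size seen in VPS13C downward, lay outside the interval of each of the 9.

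**Figure D4:**
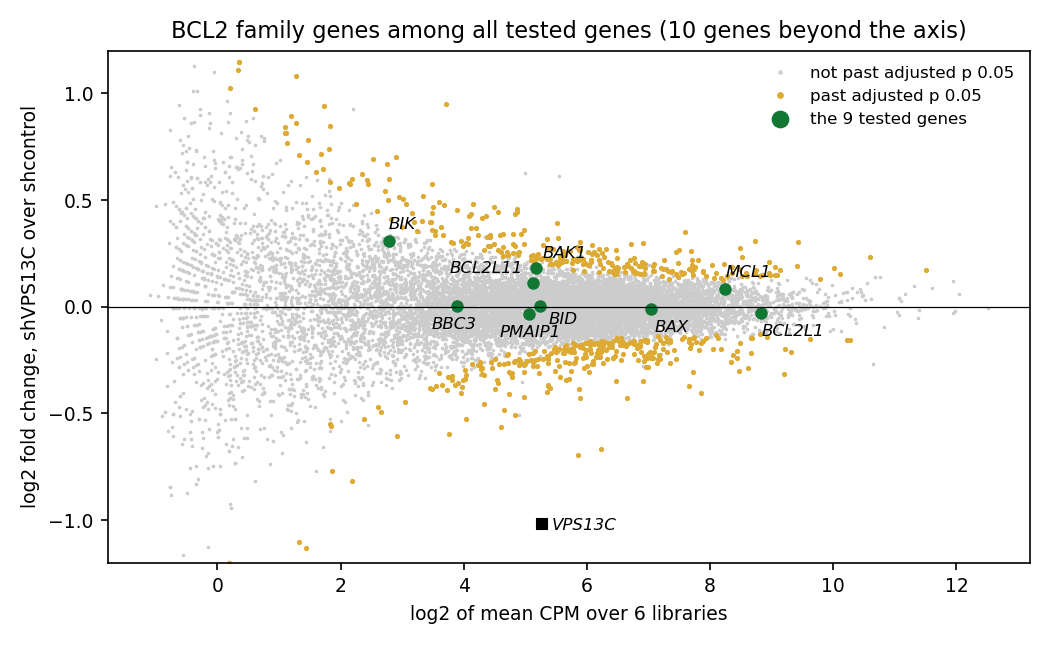
Log2 fold change against log2 mean CPM for all 12671 tested genes, with the 9 tested members (green) and VPS13C (black square); yellow points have an adjusted p under 0.05, and 10 genes lie beyond the axis limits of 1.2. The members sit among the genes that did not pass, BAK1 closest to the yellow band.

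Ratios between partners, as log2 of the FPKM ratio in each library, are given as a description with no test. BAK1 to MCL1 was -2.13, -2.24 and -2.14 in shcontrol and -2.06, -2.10 and -2.06 in shVPS13C, higher in all 3 knockdown libraries. BCL2L1 to MCL1 was 1.36, 1.33 and 1.49 in shcontrol and 1.21, 1.32 and 1.31 in shVPS13C, lower in each knockdown library than in any control. PMAIP1 to MCL1 was -1.90, -1.97 and -1.99 in shcontrol and -1.95, -2.21 and -2.06 in shVPS13C, with overlap. BBC3 to BCL2L1 averaged -4.27 ± 0.177 in shcontrol and -4.22 ± 0.164 in shVPS13C. BAX to BCL2 averaged 10.1 ± 0.684 and 9.58 ± 0.917, a ratio that rests on the few counts of BCL2.

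The transcript table splits the 10 genes into 69 RefSeq accessions, of which 8 had no count in any library and 43 passed the filter. At this level the libraries were noisier, with a biological coefficient of variation (common to all transcripts) of 0.698 against 0.035 for genes. The edgeR quasi-likelihood test called 0 of the 43, beside 0% of 41617 transcripts in all. At an unadjusted p under 0.05 it gave 3, where 4.93% of all tested transcripts did. These were the main transcripts of MCL1 (NM_021960, log2 0.07) and BAK1 (NM_001188, log2 0.20) and a minor one of BCL2L11. DESeq2 called 1 of the 43, where it called 1.96% of all tested transcripts. It was the same minor BCL2L11 accession, NM_001204111, named here after its values were seen. That accession had 0 estimated counts in each shcontrol library and 17.35, 28.98 and 21.22 in shVPS13C (DESeq2 adjusted p = 1.10e-04, edgeR adjusted p = 0.438). It has a coding length of 135 codons, as do 3 other BCL2L11 accessions in the table, and how counts were split between them is uncertain. The 4 together held 0, 29.6 and 0 counts in shcontrol and 28.9, 57.97 and 63.97 in shVPS13C, so that shcontrol replicate 2 lay above the lowest knockdown library.

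Among splice forms, Bcl-xS made up a minority of BCL2L1. Its accession held 14.9%, 17.4% and 14.8% of the gene's estimated counts in shcontrol and 16.8%, 16.8% and 15.8% in shVPS13C, with overlap. The 7 accessions paired with the 233-codon Bcl-xL coding sequence together held 77.0% ± 4.12 in shcontrol and 78.4% ± 1.96 in shVPS13C (SD, n = 3). Of the 50-base stretches of the Bcl-xS transcript, 47 of 2334 are absent from the Bcl-xL transcript it was compared with, and 274 of 2561 the other way round. For MCL1, 47 of 1061 stretches of the 271-codon transcript and 2869 of 3883 of the 350-codon transcript are absent from the other. The paired GENCODE transcripts of MCL1 are 1110 and 3932 bases long. The 2869 therefore reach well beyond the skipped exon of 248 bases, and they do not measure how much of the gene separates the forms. For BAX these were 99 of 744 for 192 codons and 664 of 1309 for 218 codons. MCL1 was nearly all of the 350-codon form, at 97.2% ± 1.28 in shcontrol and 95.9% ± 1.40 in shVPS13C. The 271-codon form held 3.78%, 3.38% and 1.39% in shcontrol and 5.44%, 3.76% and 2.64% in shVPS13C, with overlap. BAX was divided between the 192-codon alpha form, at 52.9% ± 0.361 and 52.2% ± 1.10, and the 218-codon form with the retained intron, at 30.7% ± 3.06 and 31.3% ± 1.69. The retained stretch may also be read from unspliced RNA, which was not tested.

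**Figure D5:**
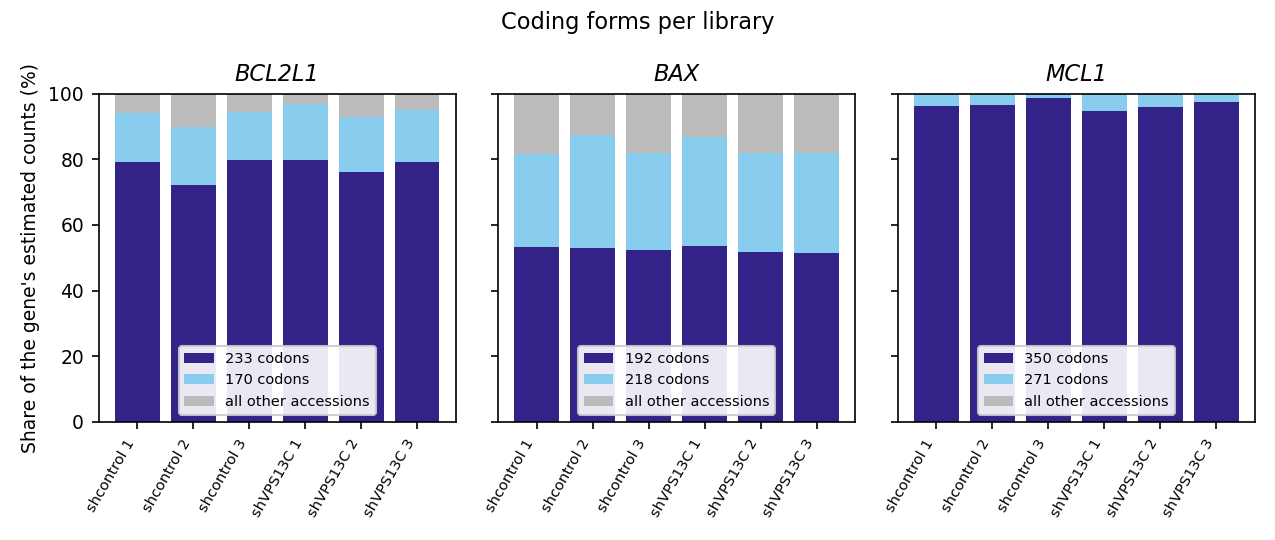
Share of each gene's estimated counts by coding form in every library, as stacked bars that add to 100%; colours give the coding length in codons and grey all other accessions. The form of 233 codons holds 72.3% to 79.9% of BCL2L1, that of 192 codons 51.5% to 53.5% of BAX, and that of 350 codons 94.6% to 98.6% of MCL1.

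BCL2L11 was spread over many accessions without a stable leader. The 198-codon form, BIM-EL, ranged from 21.7% to 43.9% of the gene's counts and the 138-codon form, BIM-L, from 2.41% to 31.2%, both within shcontrol alone. BBC3 was likewise unsettled, with its leading accession (131 codons) at 33.1%, 41.5% and 17.6% in shcontrol and 34.9%, 35.4% and 36.9% in shVPS13C. BID was mainly its 195-codon form (90.1% to 94.8%), and PMAIP1 and BIK had a single accession each. For the 7 members with at least 2 transcripts of 20 mean counts, the share of the most counted transcript was compared by an exact two-sided permutation test, whose smallest possible p is 0.1. The p-values ran from 0.4 to 1, and each was 1 after Benjamini-Hochberg adjustment over the 7. The largest difference was in BBC3, 5.06 percentage points higher in shVPS13C (exact permutation p = 0.7), with an SD of 12.1 points in shcontrol.

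The rest of the family was read in the same way through 14 further genes, of which 11 were tested, 0 were called by edgeR, and the median log2 fold change was 0.02. At an unadjusted p under 0.05 stood 2 of the 11, beside 18.9% of all tested genes, of which 4.5% were called. BMF, a BH3-only gene tied to the cytoskeleton, had 2.83, 2.32 and 2.69 CPM in shcontrol and 3.98, 3.36 and 3.63 in shVPS13C. It was higher in all 3 knockdown libraries, by 0.48 on the log2 scale (SE 0.172, edgeR unadjusted p = 0.00949, adjusted p = 0.114). On log2(FPKM + 1) its difference was smaller, at 0.19. BCL2L13, a mitophagy receptor gene, was lower without overlap, its 3 control libraries averaging 107 ± 2.53 CPM and its 3 knockdown libraries 99.9 ± 3.55 (SD; log2 -0.10, unadjusted p = 0.033, adjusted p = 0.214). HRK, another BH3-only gene, had a log2 fold change of -0.39 (SE 0.213, adjusted p = 0.334) at 1.63 to 3.07 CPM, with overlap. The anti-apoptotic gene BCL2L2 (BCL-W) stood at -0.10 with an adjusted p of 0.389. Its level was 42.0 ± 1.33 CPM in shcontrol and 39.2 ± 2.22 in shVPS13C. The remaining 7 had smaller values, from -0.05 to 0.10: BOK, BAD, BNIP3, BNIP3L, BCL2L10, BCL2L12 and BECN1. BCL2A1 and BCL2L14 had at most 2 counts in a library, BCL2L15 at most 10, and these were not tested.

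Downstream of the mitochondria, 2 of 14 tested genes of release and the apoptosome rose and 0 fell, where 2.27% of all tested genes rose and 2.23% fell. Of these, ENDOG, a mitochondrial nuclease gene, rose from 45.8, 44.4 and 40.4 CPM to 49.1, 52.5 and 51.3 (log2 0.23, SE 0.057, edgeR adjusted p = 0.0211). Its groups did not overlap, and the median log2 fold change of the list was 0.06. The remaining 12, among them the cytochrome c gene CYCS (0.11, adjusted p = 0.159), the apoptosome genes APAF1 (0.07) and CASP9 (0.15), and the inhibitor XIAP (0.0018), did not pass. Of the 14, 5 had an unadjusted edgeR p under 0.05, all higher in shVPS13C. Among all tested genes 18.9% did in either direction and 9.45% in the higher direction. The call of ENDOG ended on the FPKM scale (adjusted p of 0.0677 with limma-trend on log2(FPKM + 1), over a range of 0.00646 to 0.1002 in all alternatives). It ended too without shVPS13C replicate 2 (0.1002) or 3 (0.0837) or shcontrol replicate 3 (0.0920).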

How the data were processed

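Reads were single-end per the labels' protocols, and the genome build was hg38 per the submitters' processing notes; the name of an aligner, counting tool or annotation, or a strand setting, was not given in the sources used here. Per the file headers, the authors deposited read counts, which are estimated counts per gene and per RefSeq transcript, and FPKM for both. A further 24 per-sample columns on other scales and 16 columns of means were not used. Counts were rounded, filtered (edgeR 4.0.16 filterByExpr by group), scaled by TMM and compared with edgeR's quasi-likelihood test over all 6 libraries without covariates, two-sided, with Benjamini-Hochberg adjustment over all tested genes or transcripts and a threshold of 0.05. CPM are edgeR's, on scaled library sizes. DESeq2 1.42.0 and limma 3.58.1 (trend, log2(FPKM + 1) or + 0.1) served as alternatives, with no filter, no scaling factor, robust fitting, the replicate number as a block, and each library left out. The common biological coefficient of variation was 0.035 for genes. Chi-square values between same-group libraries were 1.98 to 3.57 for each degree of freedom, so none was a copy of another's counts. This measure cannot exclude repeat libraries of the same culture. Entrez numbers and RefSeq accessions were matched to GENCODE 29 (48 of 69 accessions, version numbers ignored). Fit functions were tested on simulated data. Named were all members, the tested genes of the rest of the family, the called genes of 3 further lists (or the one with the smallest p), VPS13C and the 3 profiles nearest to the member with the smallest p. Members and lists were chosen with earlier results of these data known. Values of some list genes are not reported here.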

Additional observations from a re-analysis of the deposited data

How the results depend on the processing

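No member was called under any of the 13 alternatives. The count of changed genes, 570, was 342 with DESeq2, 147 with limma-trend on log2(FPKM + 1), 151 with a pseudocount of 0.1, 758 with no filter, and 204 to 463 when single libraries were left out. The 3 calls in the other lists fell to 1 on the FPKM scale with either pseudocount and ran from 1 to 3 without single libraries. Transcript calls were 816 with DESeq2 and 0 to 1 without single libraries, where edgeR gave 0. On the FPKM scale BAX stood at 0.00064 and BCL2L11 at -0.065 (0.00065 and -0.071 with a pseudocount of 0.1). Without single libraries the log2 fold changes that crossed 0 ran from -0.054 to 0.00087 for BCL2L1, -0.029 to 0.021 for BAX, -0.011 to 0.024 for BID, -0.10 to 0.11 for BBC3, -0.10 to 0.026 for PMAIP1, -0.034 to 0.099 for BCL2L10, -0.0049 to 0.085 for BCL2L12 and -0.041 to 0.012 for BECN1. Differences in the share of the leading transcript crossed 0 for BCL2L1 (-8.06 to 0.962 points), BAX (-1.25 to 0.458), BBC3 (-1.51 to 10.4), BCL2L11 (-1.09 to 5.29) and BID (-1.65 to 0.622). The cause of these shifts was not tested. Deviations of same-numbered libraries correlated at 0.058, -0.043 and -0.13, and not every library correlated best with its own number. These values show no pairing by number, but with 3 libraries per group they cannot exclude it. With the replicate block 483 genes and 0 members were called. Depth limits BCL2, and the shorter forms of BCL2L1 and MCL1 have few 50-base stretches of their own.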

Other observations

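Regulators of the family's genes and proteins gave 1 call. DDIT3, the stress transcription factor CHOP, which can raise BCL2L11 and BBC3, fell from 49.3, 49.6 and 48.7 CPM in shcontrol to 39.3, 39.4 and 40.9 in shVPS13C (log2 -0.30, SE 0.053, edgeR adjusted p = 0.00131, at most 0.0116 over all alternatives). It was the 1 gene called of 12 tested transcription factor genes, where 2.23% of all tested genes fell. At an unadjusted p under 0.05 stood 6 of the 12, of which 4 were higher and 2 lower in shVPS13C, beside 18.9% of all tested genes in either direction. The median of the list was -0.04. TP73, a transcription factor gene, was higher in all 3 knockdown libraries at a low level, 0.981, 1.27 and 0.939 CPM against 0.369, 0.627 and 0.577 (log2 1.01, SE 0.350, adjusted p = 0.104), and is named after its value was seen.

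Of 7 tested genes for the turnover of MCL1, BIM and NOXA proteins, edgeR called 0, with 1 at an unadjusted p under 0.05, where 4.5% of all tested genes were called and 18.9% were under that unadjusted limit. That gene was HUWE1, a ubiquitin ligase that acts on MCL1, with 572, 560 and 541 CPM in shcontrol and 490, 515 and 539 in shVPS13C. The groups did not overlap, and the log2 fold change was -0.12 (SE 0.041, unadjusted p = 0.00903, adjusted p = 0.111). The list's median was -0.01.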
